A study of Mus musculus with 8 samples.

Results

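Musashi, polypyrimidine tract binding (PTB), Nova, muscleblind-like (Mbnl) and serine/arginine repetitive matrix (Srrm) proteins are RNA-binding regulators of alternative splicing in neurons and photoreceptors. The 10 genes Msi1, Msi2, Ptbp1, Ptbp2, Nova1, Nova2, Mbnl1, Mbnl2, Srrm3 and Srrm4, 2 from each of these families, were looked up by symbol in the gene table of the series, and all 10 were found among its 17500 genes. Their RNA was counted in whole retinas of 4 mice labelled Rbfox2 KD, here called Rbfox2-/- (M893, M901, M902, M909), and 4 mice labelled control (M833, M894, M896, M898), all C57BL/6J and 6 months old, with 1 poly(A)-selected library per mouse. Per the methods, the Rbfox2-/- mice were Rbfox2 fl/fl carrying 1 copy of a tamoxifen-inducible Cre recombinase transgene, and the controls were age-matched heterozygous Rbfox2 fl/+ mice, whose Cre status is not given. Every library carries the label of tamoxifen treatment for 4 months. The methods name corn oil vehicle as well and do not say which mice received it. They describe dosing of adult mice on a few consecutive days, and the study took the Rbfox2-/- retinas 4 months after the downregulation was induced. In the retina, reporter recombination by this Cre line is described in ganglion and amacrine cells and in some cells of the inner nuclear layer, while the counts add up RNA of all retinal cells. In RNA from a whole retina, fewer cells of a type and less RNA per cell cannot be told apart, and counts per gene do not show which exons were used.

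Each family acts on exons in its own way. Musashi proteins bind UAG-containing sites and favour photoreceptor exons, PTB proteins bind pyrimidine-rich sites and mostly repress neural exons, Nova proteins bind YCAY clusters, Mbnl proteins bind YGCY sites and drive the change from fetal to adult exons, and Srrm3 and Srrm4 promote the inclusion of the very short microexons of neurons and photoreceptors. Rbfox proteins bind the sequence UGCAUG, in alternative exons or flanking introns to change splicing and in 3′ UTRs to change RNA stability. Several of these families share target exons with Rbfox. The comparison addresses whether RNA of these regulators differs in the retina when Rbfox2 is reduced.

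Libraries held between 160630226 and 211283591 counts. Rbfox2 itself, the check of the labels, had 144 to 157 CPM (counts scaled to the normalized library size) in controls and 53.6 to 59.4 CPM in Rbfox2-/- retinas, so that the groups did not overlap and some Rbfox2 RNA remained. High Xist was found in M901 and M902 alone. Both are Rbfox2-/- retinas, so what marks these libraries is partly confounded with group, and the methods do not give the sex of the mice. M901 and M902 stood apart on the first principal component (40.5% of the variance), and M909 on the second (19.2%). Among marker lists of 17 retinal and neighbouring cell types, summed CPM did not overlap between groups for cones, horizontal cells, Muller glia and ciliary epithelium. Of all genes tested singly, 7.03% did not overlap, and no such share was computed for summed lists. In Rbfox2-/- retinas summed CPM was higher for cones (log2 ratio of means 0.14). It was lower for horizontal cells (-0.30), Muller glia (-0.14) and ciliary epithelium (-0.16). The horizontal cell list was the only one with a marker at an FDR under 0.05, 1 of its 4. A sum of CPM follows the most abundant markers of its list, so it need not hold for each marker or for the number of cells. Summed rod markers, at 57070 to 61466 CPM in controls, were the most abundant of the lists. M909 held 27.9 CPM of 3 cornea and conjunctiva markers, against at most 3.46 CPM in the other libraries, and their part in its values below was not tested. Of 3 blood markers looked up, 1 (Hba-a2) was in the table, with at most 0.0511 CPM in any library. Hba-a1 and Hbb-bs were absent from it, so the amount of blood in the retinas cannot be judged from these values.

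None of the 10 regulators differed between groups at a false discovery rate (FDR) under 0.05 (edgeR quasi-likelihood test, adjusted over 16797 genes tested), a threshold that 0.0655% of the genes tested passed. DESeq2, limma-voom and edgeR's likelihood ratio test also called 0 of the 10, where they called 465, 11 and 164 of all 16797 genes. At an unadjusted p under 0.05 there were 2 of 10, Srrm3, which was higher in Rbfox2-/- retinas, and Nova2, which was lower, and 13.3% of all genes tested had such a p, 6.42% higher and 6.87% lower. The log2 fold change was above 0 for 3 regulators and below 0 for 7, with a median of -0.03 against 0.00 for all genes tested. The median size of the change, regardless of sign, was 0.040 on the log2 scale for the 10 regulators, 0.044 for the 5671 genes at least as abundant as the lowest of them and 0.072 for all genes. In 9 of the 10, the estimated change was under 10% of the control level.

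**Figure D1:**
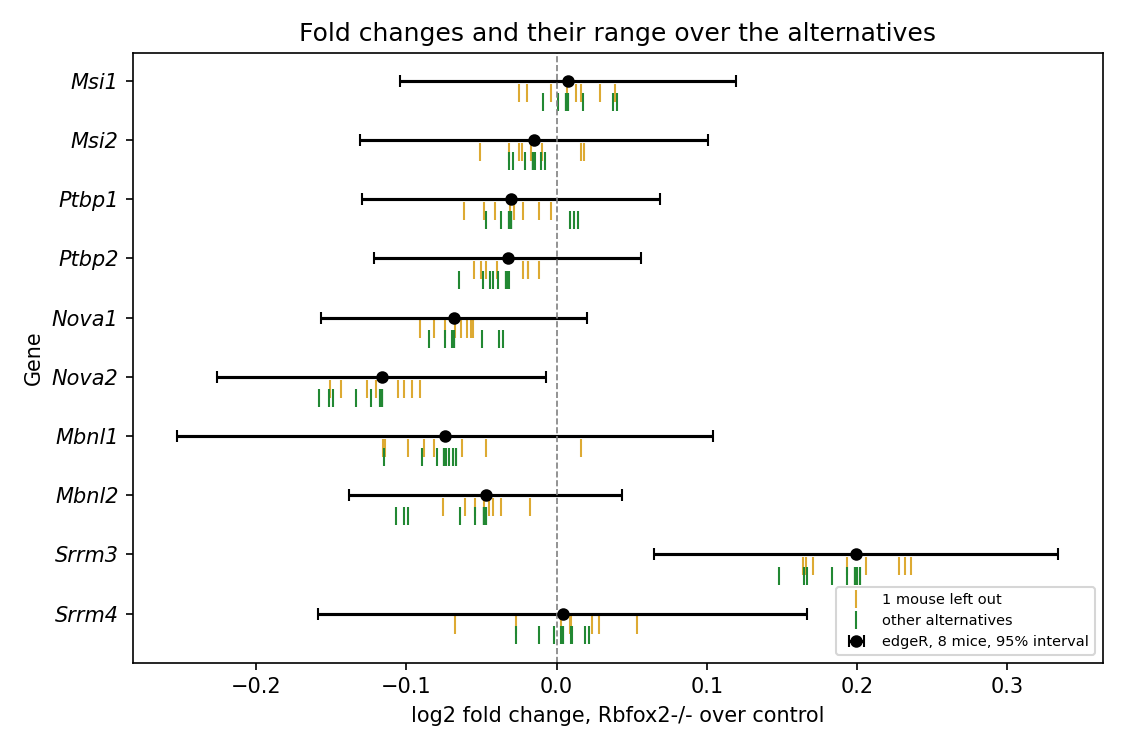
Log2 fold change (horizontal axis, Rbfox2-/- over control) of each of the 10 genes (vertical axis), with black points and 95% intervals from edgeR on 8 mice, and ticks below for fits that left out 1 mouse or changed another choice. The intervals of Srrm3 (0.06 to 0.33) and Nova2 (-0.23 to -0.01) lie on 1 side of 0, and those of the other 8 genes include 0.

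Because Rbfox2 was the gene removed, the 10 mature transcripts were searched for TGCATG, the DNA form of the Rbfox site, in the longest coding transcript of each gene in GENCODE M21 (GRCm38), on the transcript strand only. The motif was in 7 of 10 transcripts. It occurred 6 times in Nova1, 5 times in Mbnl1, 3 times each in Nova2 and Mbnl2, 2 times in Srrm3 and 1 time each in Ptbp2 and Srrm4, and no match was found in Msi1, Msi2 or Ptbp1. Of 14925 tested genes with a coding transcript, 56.1% held it at least 1 time. In the 3′ UTR alone it was in 7 of the 10, against 59.8% of the 5792 genes with a 3′ UTR as long as those of the 10 (1467 to 6704 bases). The sites of Srrm3 and Nova2, the regulators with the lowest p, and of Srrm4, the paralog of Srrm3, are shown 5′ to 3′ with 12 bases on either side and TGCATG in capitals.
Srrm3 coding sequence: gtggagctcaagTGCATGgagttgcaggag
Srrm3 3′ UTR: cgagcatgctagTGCATGcctgtaatccca
Srrm4 3′ UTR: ctcaaccccatgTGCATGtactgcaccgtt
Nova2 3′ UTR, first: ctgccttttgtgTGCATGcctgtgtctacg
Nova2 3′ UTR, middle: tgtagctccaccTGCATGtgggtagtaaag
Nova2 3′ UTR, last: gaggttctccctTGCATGgactcttgctgt
Both regulators with an unadjusted p under 0.05 held the motif, and so did 5 of the other 8. A match describes the letters of the transcript and is no measurement of binding. Introns, where Rbfox sites that change splicing also lie, were not searched.

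The 10 genes spanned a wide range of levels. Levels of different genes were compared in FPKM, the authors' counts divided by gene length and library total, averaged over the 8 mice. Msi1 was highest with 245 FPKM and Msi2 followed with 82.5 FPKM, above 99.3% and 96.4% of the genes in the table. Mbnl2 had 50.3, Mbnl1 40.0, Srrm3 27.9, Ptbp2 27.2, Ptbp1 26.0 and Srrm4 15.8 FPKM. Nova2 and Nova1, at 5.92 and 5.38 FPKM, were lowest and lay near the median gene of the table (6.23 FPKM). Of the 9 neighbouring pairs in this order, 4 overlapped over the mice, Mbnl2 with Mbnl1, Srrm3 with Ptbp2, Ptbp2 with Ptbp1, and Nova2 with Nova1. Within a library, Mbnl2 was nevertheless above Mbnl1 in 8 of 8 mice and Nova2 above Nova1 in 7 of 8, while Srrm3 was above Ptbp2, and Ptbp2 above Ptbp1, in 5 of 8 each. The order also depends on the gene length used. The deposited values imply 1.55 kb for Msi1 and 4.53 kb for Mbnl1, while the merged exons of GENCODE M21 span 5.80 and 18.7 kb. With CPM per kb of merged exons, 39 of 45 pairs kept their order, and Mbnl1 moved from rank 4 to rank 8. Msi1 remained first, but much closer to Msi2 (65.5 against 51.5 CPM per kb).

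**Figure D2:**
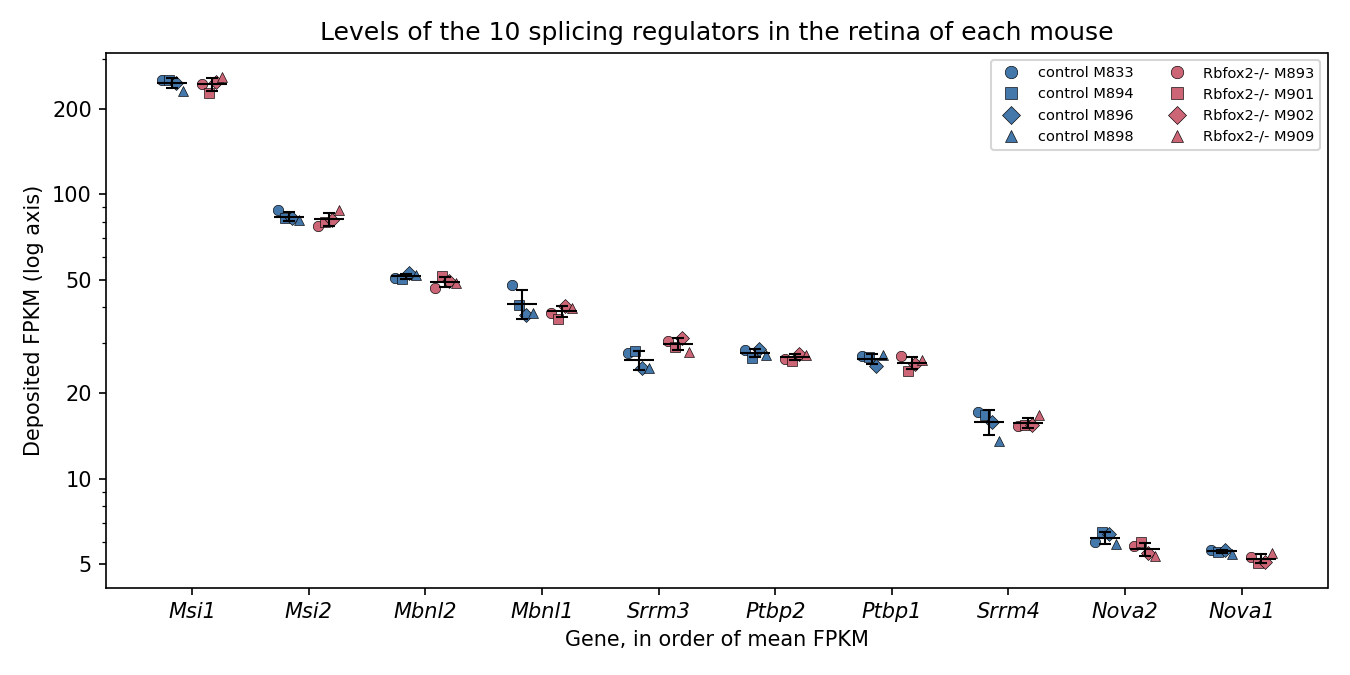
Deposited FPKM of each gene in each mouse on a log axis, in order of the mean over 8 mice, with blue points for controls, red points for Rbfox2-/- mice, and bars for the mean and SD of 4 mice. Msi1 stands above Msi2 in every mouse, the Nova genes are lowest, and the groups lie close to each other for every gene.

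Srrm3 (chr5:135806890-135874772, plus strand of GRCm38) encodes a microexon regulator of neurons that is also used in photoreceptors. Values are given throughout in the order M833, M894, M896, M898 for controls and M893, M901, M902, M909 for Rbfox2-/- retinas. Srrm3 had 110.5, 109, 95.03 and 94.7 CPM in controls, and in Rbfox2-/- retinas it had 119, 116, 124 and 110.6 CPM. Every Rbfox2-/- retina was above every control, but M909 and the control M833 nearly touched, and in deposited FPKM M909 (27.9) was below the control M894 (28.1). Groups did not overlap in CPM for 1 of the 10 regulators, Srrm3, and for 7.03% of all genes tested. The mean was 118 ± 5.78 CPM (SD, n = 4) in Rbfox2-/- and 102 ± 8.67 CPM (SD, n = 4) in control retinas. The log2 fold change was 0.20 with a standard error of 0.060, or 14.8% more, with a 95% interval from 4.61 to 26.1% (unadjusted p under 0.05, adjusted p = 0.242 by edgeR's quasi-likelihood test). Without M901 and M902 the log2 fold change was 0.16 and the unadjusted p was no longer under 0.05 (adjusted p = 0.854 in the same edgeR test), and over all alternatives the adjusted p lay between 0.0614 and 0.854. Beside it, summed CPM of the 5 cone markers was 808 to 821 in controls and 861 to 985 in Rbfox2-/- retinas, with none of them at an FDR under 0.05, while the 5 rod markers overlapped (57070 to 61466 and 59488 to 64621 CPM), and the part of these in the difference of Srrm3 was not tested.

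Its paralog Srrm4 (chr5:116439275-116591817, minus strand), known for including microexons throughout the nervous system, had nearly equal means in the groups. Control retinas had 130.2, 123, 117 and 99.7 CPM in that order. Rbfox2-/- retinas had 113, 117, 117 and 126 CPM, all within the range of the controls. The log2 fold change came to 0.00 ± 0.073 (standard error, adjusted p = 0.989 by edgeR), with an interval from -10.4 to 12.2%. The control M898 was the lowest of all 8 mice, and without it the log2 fold change was -0.07.

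The count ratio of paralogs within a library needs no scaling between libraries. Srrm3 to Srrm4 was 0.849, 0.884, 0.809 and 0.949 in controls. In Rbfox2-/- retinas it was 1.05, 0.994, 1.07 and 0.880, so that 3 of 4 Rbfox2-/- retinas were above all controls and M909 lay among them. The mean log2 ratio was higher by 0.19 in Rbfox2-/- retinas, which did not pass an exact permutation test (p = 0.0857, two-sided, and 0.429 adjusted over 5 ratios by the exact test, whose smallest possible p is 0.0286). The other 4 ratios overlapped between the groups, with differences in log2 ratio between -0.02 (Mbnl1 to Mbnl2) and 0.05 (Nova1 to Nova2) and exact permutation p between 0.600 and 1. Without M909 the difference of Nova1 to Nova2 was 0.00051. In controls the ratio of counts was 0.704 ± 0.0239 for Msi1 to Msi2, 0.827 ± 0.0550 for Ptbp1 to Ptbp2, 0.749 ± 0.0345 for Nova1 to Nova2 and 0.808 ± 0.104 for Mbnl1 to Mbnl2 (SD, n = 4). These ratios are of counts and not per length. Paralogs were 66.4 to 74.6% identical over their aligned coding bases, with identical runs of at most 44 bases (Msi1 and Msi2). Only uniquely mapped reads were counted, and the paired reads sequenced were longer than these runs. Loss of reads between paralogs was not measured.

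**Figure D3:**
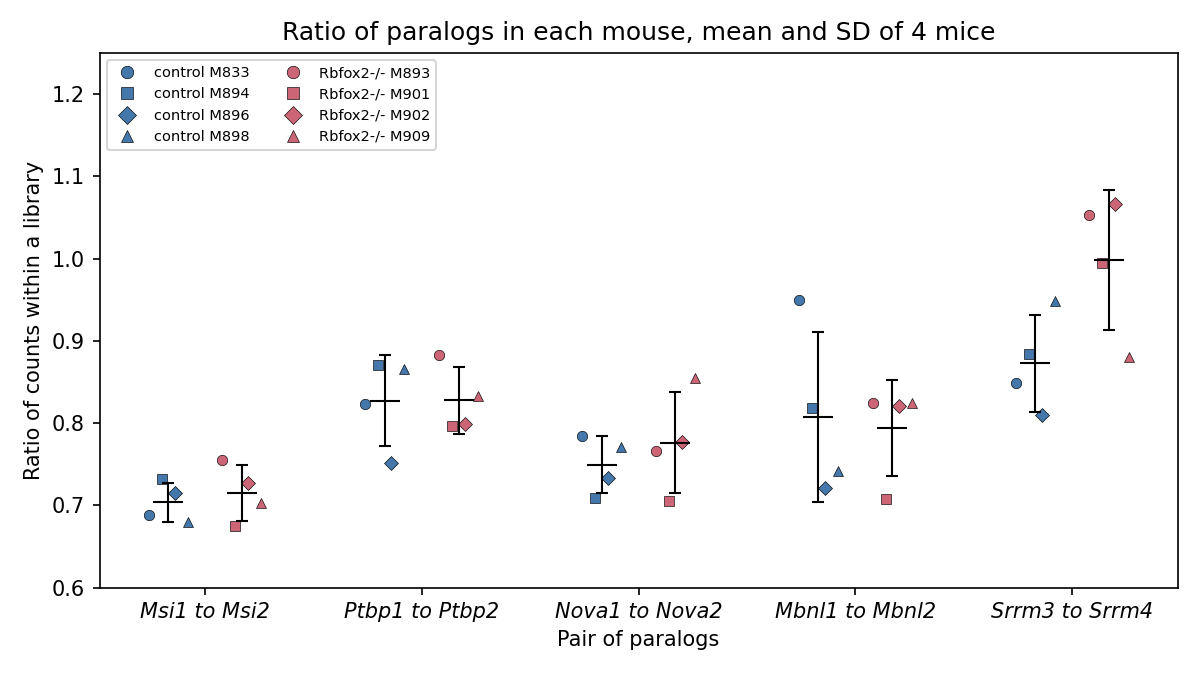
Ratio of the counts of paralogs within each library (vertical axis) for the 5 families, with blue points for controls, red points for Rbfox2-/- mice, and bars for the mean and SD of 4 mice. For Srrm3 to Srrm4, M893, M901 and M902 are above all controls and M909 (0.880) is among them, and the other families overlap.

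Nova2 (chr7:18925888-18965319, plus strand) encodes the Nova protein best known from the cortex, which controls exons of synaptic and axon guidance genes. It had 50.8, 53.7, 53.1 and 48.6 CPM in controls, and 48.0, 50.8, 46.4 and 45.1 CPM in Rbfox2-/- retinas. Of the Rbfox2-/- retinas 3 were below every control, while M901 was level with the control M833 and above M898. The log2 fold change came to -0.12 ± 0.049 (standard error, unadjusted p under 0.05, adjusted p = 0.357 by edgeR), a change of -7.74% with an interval from -14.5 to -0.472%. When M894, M896, M893, M902 or M909 was left out, the unadjusted p was no longer under 0.05, and over all alternatives the adjusted p lay between 0.259 and 0.782. An opposite-strand lincRNA, Gm26821, overlaps 31.7% of the exon bases of Nova2 and is not among the genes counted in the series. Whether the counting used strand is not stated, and the part of Gm26821 in the counts of Nova2 was not tested.

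Nova1 (chr12:46694517-46818929, minus strand), the Nova protein of the brainstem and spinal cord, had 39.8, 38.1, 38.9 and 37.5 CPM in controls. With 36.7, 35.9, 36.1 and 38.5 CPM, 3 of the 4 Rbfox2-/- retinas (M893, M901 and M902) were below every control and M909 was not. The log2 fold change of -0.07 (standard error 0.040) was past neither threshold (adjusted p = 0.485 by edgeR), and its interval ran from -10.3 to 1.40%. Without M909 the log2 fold change was -0.09, with an unadjusted p under 0.05 and an adjusted p = 0.259 in the same edgeR test, and over all alternatives the adjusted p lay between 0.259 and 0.972. Without M901 and M902 it was -0.04, and with a term for the libraries with high Xist it was also -0.04.

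Msi1 (chr5:115429599-115455698, plus strand), a marker of neural stem cells that is also made in adult photoreceptors, had 398, 386, 378 and 353 CPM in controls. The Rbfox2-/- retinas covered almost the same range, with 376, 355, 389 and 403 CPM. Msi2 (chr11:88339382-88718513, minus strand), which acts together with Msi1 in photoreceptors, had 578, 527, 529 and 520 CPM in the controls and 498, 527, 534 and 573 CPM in the Rbfox2-/- retinas. M833 was the highest control for both genes and M909 the highest Rbfox2-/- retina. The log2 fold changes were 0.01 for Msi1 (standard error 0.050, adjusted p = 0.966 by edgeR) and -0.01 for Msi2 (standard error 0.052, adjusted p = 0.931). The intervals reached from -6.99 to 8.62% for Msi1 and from -8.67 to 7.25% for Msi2.

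Ptbp1 (chr10:79854427-79864771, plus strand) is the PTB protein of non-neuronal cells and progenitors, and Ptbp2 (chr3:119718742-119784466, minus strand) replaces it in neurons. Ptbp1 had 79.9, 76.8, 71.5 and 77.7 CPM in controls, and 77.6, 70.5, 74.8 and 76.5 CPM in Rbfox2-/- retinas. For Ptbp2 the controls had 97.0, 88.2, 95.2 and 89.8 CPM and the Rbfox2-/- retinas 87.9, 88.5, 93.7 and 91.9 CPM. The groups overlapped for both, and the log2 fold changes were -0.03 for each (standard errors 0.044 and 0.040, adjusted p = 0.810 and 0.763 by edgeR). With 1 mouse left out, that of Ptbp1 ran from -0.06 (without M896) to -0.0034 (without M901), and that of Ptbp2 from -0.05 (without M894) to -0.01 (without M833). The intervals ran from -8.60 to 4.87% for Ptbp1 and from -8.08 to 3.98% for Ptbp2. Summed CPM of 5 Muller glia markers was 5195 to 5688 in controls and 4768 to 5147 in Rbfox2-/- retinas, with 0 of 5 at an FDR under 0.05, and its part in the values of Ptbp1 was not tested. Annotated genes on the opposite strand overlap up to 9.22% of the exon bases of Ptbp1.

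Mbnl1 (chr3:60472830-60629750, plus strand) and Mbnl2 (chr14:120275669-120431697, plus strand) are the muscleblind proteins sequestered by expanded repeats in myotonic dystrophy, Mbnl2 being the main one in brain. Mbnl1 had 221 CPM in the control M833 and 183, 170 and 170.2 CPM in M894, M896 and M898, so that M833 stood above the other 7 mice. M833 was also the library with the lowest summed CPM of the 6 retinal ganglion cell markers, 444 against 579 to 766 in the other mice, with none of the 6 at an FDR under 0.05 between groups, and its part in these values was not tested. In Rbfox2-/- retinas it had 172, 167, 185 and 182 CPM. The log2 fold change came to -0.07 ± 0.080 (standard error, adjusted p = 0.729 by edgeR), the least precise of the 10, and without M833 it was 0.02. Mbnl2 had 233, 224, 235 and 229.6 CPM in controls, and 209, 235, 226 and 221 CPM in Rbfox2-/- retinas. For it the log2 fold change came to -0.05 ± 0.041 (standard error, adjusted p = 0.647 by edgeR), with an adjusted p range over all alternatives of 0.486 to 0.880. It was -0.02 without M893, -0.10 without M901 and M902, and -0.11 with 1 surrogate variable, where the unadjusted p was under 0.05. The intervals ran from -16.1 to 7.48% for Mbnl1 and from -9.11 to 3.05% for Mbnl2.

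**Figure D4:**
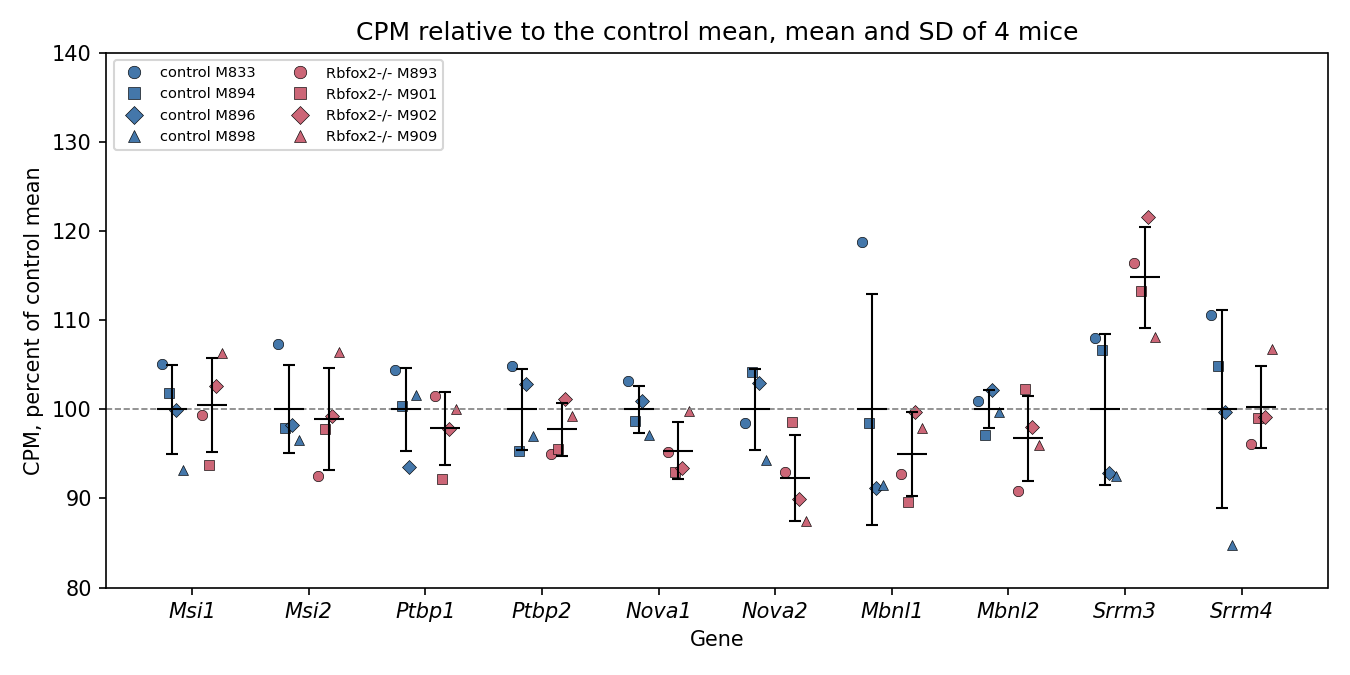
CPM of each gene in each mouse as a percent of its control mean (vertical axis, 100 marked by the dashed line), with blue points for controls, red points for Rbfox2-/- mice, and bars for the mean and SD of 4 mice. Points lie between 84.7 and 122%, with Srrm3 the only gene whose groups do not overlap, and M833 far above the other mice for Mbnl1.

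Other genes of these families and their partners were counted in the same fit. Of 10 listed genes (Ptbp3, Mbnl3, Srrm1, Srrm2, Raver1, Raver2, Matr3, Hnrnpll, Hnrnpl and Nsrp1), 9 were tested and 0 passed an FDR of 0.05, with a median log2 fold change of -0.01. Raver2, which encodes a PTB cofactor, had the lowest p of them. It had 29.3 ± 0.677 CPM in control and 27.4 ± 0.442 CPM in Rbfox2-/- retinas (SD, n = 4), a log2 fold change of -0.09 (unadjusted p under 0.05, adjusted p = 0.323 by edgeR). Its groups did not overlap, as for 7.03% of all genes tested. Mbnl3, the X-linked member of the Mbnl family, came next, its log2 fold change being -1.23 (standard error 0.73, adjusted p = 0.498 by edgeR) at a very low level, 0.479 ± 0.183 CPM in controls. In M901 and M902 it was at 0.0259 and 0.0252 CPM, and without them the log2 fold change was -0.34. Of 16 other tissue-restricted regulators (among them Khdrbs1 to Khdrbs3, Qk, Rbm20, Rbm24, Esrp1 and Esrp2) 0 of 16 passed. The lowest p was that of Rbms1, with a log2 fold change of -0.26 (unadjusted p under 0.05, adjusted p = 0.293 by edgeR), followed by Rbm38 with 0.19 (adjusted p = 0.480).

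Genes whose exons the 5 families are known to regulate were counted as whole genes, which does not measure splicing. None of them passed an FDR of 0.05 in edgeR's quasi-likelihood test. Among all genes tested, 13.3% had an unadjusted p under 0.05 in that test. The groups did not overlap in CPM for 7.03% of them. Of 7 genes with exons used in photoreceptors, mostly tied to Musashi proteins, 2 were higher and 1 lower at an unadjusted p under 0.05, with a median log2 fold change of 0.07. Cacna2d4, a calcium channel subunit of photoreceptor terminals, had 523 ± 23.8 CPM in control and 591 ± 15.1 CPM in Rbfox2-/- retinas (SD, n = 4), a log2 fold change of 0.17 (adjusted p = 0.178 by edgeR). Impdh1, a guanine nucleotide synthesis enzyme with photoreceptor isoforms, had 964 ± 37.4 and 872 ± 17.1 CPM (SD, n = 4), a log2 fold change of -0.14 (adjusted p = 0.221 by edgeR). The groups did not overlap for either gene, and the cone marker values given with Srrm3 stand beside these photoreceptor genes as well.

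Among 8 PTB target genes, 1 was higher and 1 lower at an unadjusted p under 0.05, against 6.42% higher and 6.87% lower among all genes tested. Dlg4, the postsynaptic scaffold PSD-95 whose RNA PTB proteins destabilize through exon skipping, had a log2 fold change of 0.20 (adjusted p = 0.239 by edgeR), and its groups did not overlap. Tpm1, a tropomyosin with a classic PTB-repressed exon, had -0.21 (adjusted p = 0.224). Of 8 Nova target genes 0 had an unadjusted p under 0.05, and the lowest belonged to the calcium channel gene Cacna1b (log2 fold change -0.09, adjusted p = 0.409 by edgeR) and to Agrn, which encodes agrin (-0.15, adjusted p = 0.414).

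Among 14 Mbnl target genes, which include Mbnl1 and Mbnl2, 11 had a log2 fold change below 0, with a median of -0.07, against 49.3% below 0 and a median of 0.00 among all genes tested. Grin1, the obligatory subunit of NMDA receptors, had 151 ± 7.87 CPM in control and 133 ± 6.43 CPM in Rbfox2-/- retinas (SD, n = 4), a log2 fold change of -0.18 (adjusted p = 0.192 by edgeR). Bin1, a membrane-bending protein misspliced in myotonic dystrophy, had a log2 fold change of 0.10 (adjusted p = 0.307), and both had an unadjusted p under 0.05. The groups did not overlap for Grin1 and Bin1, as for 7.03% of all genes tested, of which 13.3% had an unadjusted p under 0.05. Of 10 target genes of Srrm3 and Srrm4, 0 had an unadjusted p under 0.05, and the median log2 fold change was 0.00. The lowest p was that of Rest, the transcriptional repressor that keeps neural genes such as Srrm4 off and is itself spliced by it, with 22.5 ± 0.942 and 21.2 ± 1.38 CPM in control and Rbfox2-/- retinas (SD, n = 4, log2 fold change -0.09, adjusted p = 0.527 by edgeR). Cpeb4, with a neuronal microexon, followed with -0.07 (adjusted p = 0.620).

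The genes whose profiles over the 8 mice were closest to those of Srrm3 and Nova2 were sought among 13756 genes with at least 1 CPM, as the root mean square difference of log2 CPM after centring each gene on its mean. For Srrm3 they were Aars2 (0.0245), Crocc (0.0251) and Ikbkb (0.0280), where the median gene differed by 0.153. Their log2 fold changes were 0.20, 0.20 and 0.18, and 0 of the 3 passed an FDR of 0.05. For Nova2 they were Trim66 (0.0166), Kcnh5 (0.0297) and Adcy5 (0.0360), with the median gene at 0.122 and log2 fold changes of -0.13, -0.12 and -0.08. The genes were chosen for their closeness over these same mice, so fold changes near those of Srrm3 and Nova2 follow from the choice. They are no evidence of shared regulation. These distances describe 8 libraries, which each gene shares with all others.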

How the data were processed

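Reads were mapped to mm10 by the authors (STAR), only uniquely mapped ones were counted per gene (HTSeq), and the deposited counts are not normalized. The methods name a RefSeq and an Ensembl annotation. The deposited FPKM values are the authors' counts divided by gene length and library total, and were used for levels of different genes. The authors' fold changes, p-values and normalized counts (16 columns of values per mouse) were not used.

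All genes were fitted with edgeR 4.0.16 (R 4.3.3; filterByExpr, TMM, quasi-likelihood test, no covariate, two-sided), with Benjamini-Hochberg adjustment over the 16797 genes tested. Counts of this comparison were also simulated, with changes placed only in genes of high mean counts (16713 genes tested). Of 100 genes changed by a factor of 1.25, 61% were called at an FDR under 0.05. The share was 100% of 100 genes changed by a factor of 2, with 5 other genes called. Simulated counts were drawn independently, without the separation of M901, M902 and M909 seen here, so these shares need not hold in the real data. Intervals are 95% intervals of the edgeR fit to the real counts. All pairs of libraries differed by more than sampling noise. Nothing says how the mice are related, so p-values measure the spread between these 4 and 4 mice. With 160630226 counts or more per library, 3 counts are at most 0.0187 CPM, which covers counting error only, and precision is limited by the number of mice.

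The regulators, gene lists and marker lists were chosen with earlier results of these data known. Genes named are the 10 regulators, Rbfox2, the 2 genes of each list with the lowest p, and the 3 profiles nearest to the 2 regulators with the lowest p. The fit was repeated with DESeq2 1.42.0, the likelihood ratio test of edgeR, limma 3.58.1 (voom and trend), other size factors and filters, 1 surrogate variable (sva 3.50.0), a term for the libraries with high Xist, and leaving out mice.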

Additional observations from a re-analysis of the deposited data

Results flagged for a closer look

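Each gene was checked for a single mouse at a distance from its group, 22 groups in all, and Msi2 in controls stood out, with 578 CPM in M833 against 520 to 529 CPM in the other 3 controls. About 1 such group in 20 is found by chance. Without M833 the log2 fold change of Msi2 was 0.02.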

How the results depend on the processing

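With 4 mice per group and standard errors between 0.040 and 0.080 on the log2 scale, changes of a few percent in these regulators were not detectable. The estimated 14.8% of Srrm3 did not pass an FDR of 0.05 either, so larger changes could be missed as well. Under all 20 alternatives 0 of the 10 regulators had an FDR under 0.05. Over all genes, 11 passed, against 465 with DESeq2, 164 with the likelihood ratio test, 1 without M901 and M902, 4 with a term for high Xist, 5 with 1 surrogate variable, and 5 to 35 with 1 mouse left out. Of the 10 regulators, 2 had an unadjusted p under 0.05, 1 with the likelihood ratio test, 1 without M901 and M902, 1 with the Xist term, 2 with 1 surrogate variable (Nova2 and Mbnl2, no longer Srrm3), and 1 to 2 with 1 mouse left out. Among all genes tested, 13.3% had such a p in edgeR's quasi-likelihood test on all mice. That share was not computed for the alternatives, so these counts do not set the regulators apart from other genes. Srrm3 stayed above 0 and Nova2 below 0 in all fits, with p under 0.05 in 18 and 15 of 21. Signs turned for values close to 0: Msi1 was -0.00892 by library size only (-0.0247 to 0.0386 with 1 mouse left out), Msi2 -0.0508 to 0.0179 and Mbnl1 -0.116 to 0.0164 with 1 mouse left out. Ptbp1 was 0.00889 without M901 and M902, 0.0115 with the Xist term and 0.0142 with 1 surrogate variable. Srrm4 was -0.00148 with upper-quartile scaling, -0.0117 by library size only, -0.0267 with 1 surrogate variable and -0.0674 to 0.0534 with 1 mouse left out. With 1 mouse left out the log2 ratio difference ran from -0.00404 to 0.0501 for Msi1 to Msi2, from -0.0440 to 0.0267 for Ptbp1 to Ptbp2, from 0.000514 to 0.0930 for Nova1 to Nova2, from -0.0702 to 0.0622 for Mbnl1 to Mbnl2 and from 0.157 to 0.252 for Srrm3 to Srrm4, and without M901 and M902 it was 0.0380 for Mbnl1 to Mbnl2. The cause was not tested. No paired analysis was possible because the labels give mice by name and number no replicates across the groups.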
